A study of Bos taurus with 3 samples.

Results

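miR-103 and miR-107 are closely related microRNAs, small RNAs of which the mature strand guides silencing complexes to messenger RNAs. They were described here in RNA from large dense-core vesicles of bovine chromaffin cells, the adrenal medulla cells that store catecholamines in such vesicles and release them. The members were all entries of the deposited count table named miR-103 or miR-107, with any arm, and these were 3 of 919 rows. They belong to 2 of 793 mature miRNAs, bta-miR-103 (MIMAT0003521), counted on the hairpins mir-103-1 and mir-103-2, and bta-miR-107 (MIMAT0003785), counted on mir-107. The series held 3 libraries, labelled biological replicate 1, technical replicate 1 and technical replicate 2. All were labelled as chromaffin cells of the adrenal gland medulla of cow, obtained from local slaughter, and no treatment, genotype or age was given. The labels do not say which step was repeated in the technical pair, nor how many animals were pooled, so the pair was averaged and means and SDs were taken over n = 2 preparations. No whole-cell library was analysed here, so the values are levels in vesicle preparations and not enrichments over the cell.

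As background, the mature strands of miR-103 and miR-107 share their seed, the bases near the 5′ end that pair with targets, and are known to differ by a single base close to the 3′ end. In mammals their genes lie within introns of the pantothenate kinase (PANK) genes, whose products start the synthesis of coenzyme A. In mouse they are known as regulators of insulin sensitivity, and in human cells as repressors of DICER1, the enzyme that cuts miRNAs from their precursors. They are counted in a wider set, the miR-15 and miR-107 group, which also holds miR-16, miR-195, miR-497, miR-424 and miR-503 and shares a short motif at the 5′ end. A read that ends before the base at which miR-103 and miR-107 differ cannot be assigned to either of them, and no source used here says how the authors treated such reads. The split of reads between the names is uncertain to that extent.

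In the RefSeq gene table of the assembly ARS-UCD2.0, MIR103-1 lay within the span of PANK3, MIR103-2 within PANK2 and MIR107 within PANK1. Such a position is common, since 674 of 1032 bovine miRNA genes in that table (65.3%) lay within the span of a protein-coding gene. The table gives no strand and is not of the build of the count table, so it served only for names and neighbours. None of the 3 genes had another miRNA gene within 10 kb. In the count table each of the 3 member hairpins carried 1 mature row, whereas 103 of 808 hairpins (12.7%) carried 2.

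After each mature miRNA was counted once, by its hairpin row with the most counts, the libraries held 6708654 counts in biological replicate 1, 5546771 in technical replicate 1 and 6251664 in technical replicate 2. A count of 0 allows up to 3 counts, which is 0.447 to 0.541 CPM (counts scaled to a common library total) in these libraries. The chromaffin and endocrine markers miR-375 and miR-7 together held 473000 CPM in biological replicate 1, against 440620 and 428375 CPM in technical replicates 1 and 2. Most of this sum is miR-375, the higher of the markers in every library, while miR-7 was lowest in biological replicate 1, and neither passed the edgeR test described below. The 5 mature miRNAs of vessel wall and connective tissue summed to 10238 CPM in biological replicate 1, against 16801 and 18836 CPM in the technical pair. Of the 5, 4 were lower in that test, beside 20.2% lower and 17.7% higher among all miRNAs tested. The 2 endothelial arms of miR-126 were both lower and summed to 1130 CPM, against 1820 and 1888 CPM. The 5 leukocyte miRNAs summed to 50.7 CPM, against 78.4 and 75.5 CPM, and 1 of the 4 fitted was lower. The 3 erythrocyte miRNAs summed to 1097 CPM, against 898 and 837 CPM, and 1 of the 2 fitted was higher. That one was miR-486 (log2 fold change 0.53), which made up most of the sum with a mean of 962 CPM. miR-451, with a mean of 19.4 CPM, had a log2 fold change of -0.19 and did not pass. The hepatocyte marker miR-122 was near the floor, with 0.149 CPM in biological replicate 1 against 1.08 and 0.960 CPM, and no marker on these lists was at 0 in all 3 libraries. Whether this difference in cell markers has a part in the values of miR-103 and miR-107 was not tested.

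The hairpin rows of miR-103 carried almost the same counts. On mir-103-1 there were 456266 counts in biological replicate 1, 346537 in technical replicate 1 and 375481 in technical replicate 2. On mir-103-2 there were 456307, 346563 and 375499 counts in the same libraries. The mir-103-2 row was the higher one in every library, by 41, 26 and 18 counts, which is 0.00899%, 0.00750% and 0.00479% of it. Of the 50 miRNAs with several hairpin rows and at least 100 counts on one of them, 33 had rows within 5% of each other and 9 had identical rows. The gap of miR-103, 0.00721% over all libraries, was the smallest after those 9. With rows this close, the counts do not tell PANK2-linked from PANK3-linked miR-103.

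**Figure D1:**
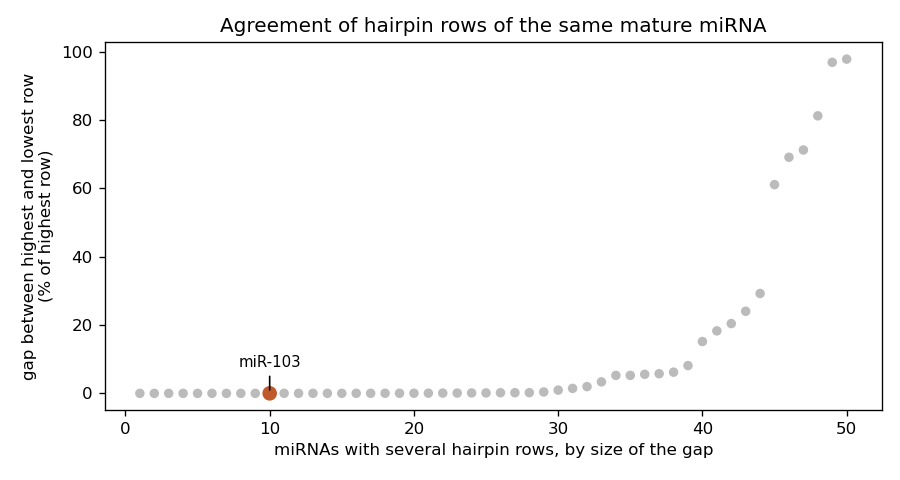
Gap between the highest and lowest hairpin row of the same mature miRNA, in percent of the highest row and summed over the 3 libraries (vertical axis). Shown are the 50 miRNAs with several rows and at least 100 counts on one of them, ordered by that gap (horizontal axis). miR-103, at 0.00721%, lies among the miRNAs with almost equal rows.

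miR-103 was among the most abundant miRNAs of every library, with 6.46% ± 0.477 of all miRNA counts (SD, n = 2). It had 68018 CPM in biological replicate 1, against 62480 CPM in technical replicate 1 and 60064 CPM in technical replicate 2. As shares these were 6.80% (exact Clopper-Pearson 95% interval 6.78 to 6.82%), 6.25% (6.23 to 6.27%) and 6.01% (5.99 to 6.03%). Biological replicate 1 was thus the highest, and no interval overlapped another. The intervals cover counting error only, with each read taken as a separate draw. No molecular identifiers are mentioned, so repeated reads of the same molecule would make them too narrow. miR-103 ranked 2, 2 and 3 in biological replicate 1 and technical replicates 1 and 2.

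The neighbour above miR-103 by mean level was miR-375, with 416586 CPM in biological replicate 1 against 381396 and 358079 CPM in the technical pair, which is far beyond the spread of either. The neighbour below was miR-7, with 56414 CPM against 59224 and 70296 CPM. Its range overlapped that of miR-103, and in technical replicate 2 miR-7 stood above it. Levels are compared between miRNAs as counts without length scaling, because a miRNA is read whole. Ligation during library preparation favours some ends over others and no correction is stated, so the order between miRNAs carries that limit.

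miR-107 was far scarcer, with 0.239% ± 0.00977 of the counts (SD, n = 2). There were 15552 counts of miR-107 in biological replicate 1, 13394 in technical replicate 1 and 15616 in technical replicate 2. These amount to 2318 CPM in biological replicate 1, against 2415 and 2498 CPM in the technical pair. The shares were 0.232% (exact 95% interval 0.228 to 0.235%), 0.241% (0.237 to 0.246%) and 0.250% (0.246 to 0.254%), so biological replicate 1 was here the lowest. miR-107 ranked 41, 39 and 40 in biological replicate 1 and technical replicates 1 and 2. It lay next to miR-199a-3p, with 1984 CPM in biological replicate 1 against 2952 and 3048 CPM, and miR-92a, with 2604 CPM against 2185 and 2099 CPM. Both neighbours ranged across the level of miR-107, so the order of these 3 miRNAs changed between libraries. miR-199c, listed under a separate name, had the same CPM as miR-199a-3p in every library, and the ranks count both names.

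Together miR-103 and miR-107 held 6.70% ± 0.467 of the counts (SD, n = 2), with 7.03% in biological replicate 1 against 6.49% and 6.26% in technical replicates 1 and 2. The ratio of miR-103 to miR-107, which does not depend on how libraries are scaled, was 29.3 in biological replicate 1, against 25.9 and 24.0 in the technical pair. miR-107 made up 3.30% of the counts of both names in biological replicate 1 (exact 95% interval 3.25 to 3.35%), against 3.72% (3.66 to 3.78%) in technical replicate 1 and 3.99% (3.93 to 4.05%) in technical replicate 2. None of the 3 intervals overlapped, those of the technical pair included. They take each read as a separate draw and may be too narrow, so this does not show a difference beyond counting error. Biological replicate 1 lay 0.23 log2 units above the technical mean in the log2 ratio of miR-103 to miR-107, and the technical replicates lay 0.11 log2 units apart. With 1 library against 2, an exact permutation test cannot give a p below 0.333, so this difference was not tested.

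**Figure D2:**
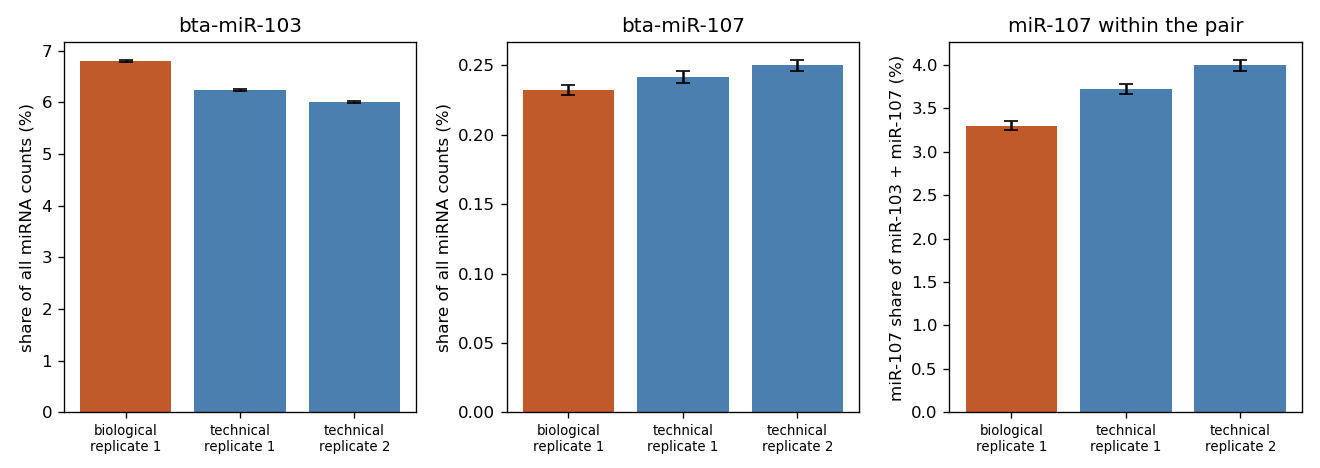
Share of all miRNA counts taken by miR-103 (left) and miR-107 (middle), and share of miR-107 in the counts of both (right), in percent, for biological replicate 1 (orange) and technical replicates 1 and 2 (blue). Bars are single libraries and error bars exact 95% intervals for counting error; miR-103 was highest in biological replicate 1 at 6.80%, and miR-107 lowest there at 0.232%.

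Between the technical replicates, the level of either miRNA differed by less than the median of the abundant miRNAs. The log2 CPM of technical replicate 2 minus that of technical replicate 1 was -0.057 for miR-103 and 0.049 for miR-107. Over the 62 miRNAs averaging 1000 CPM or more, the median absolute value of that difference was 0.083 and the highest 0.33, and 20 of the 62 differed less than miR-103 and 16 less than miR-107. Scaled to library totals, biological replicate 1 differed from the technical mean by 0.15 log2 units for miR-103 and -0.083 for miR-107, where the median absolute difference of the 62 was 0.19. Of the 62, 22 differed less than miR-103 and 14 less than miR-107. For miR-103 this place depends on the scaling. With TMM scaling, a comparison added after seeing the data, its log2 fold change of 0.33 lay above the median absolute value of the 62, 0.26, and 37 of the 62 differed less. That of miR-107, 0.098, lay below the median, and 14 differed less.

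Biological replicate 1 was then compared with the technical pair by edgeR's quasi-likelihood test on counts, with TMM scaling and Benjamini-Hochberg adjustment over all 367 mature miRNAs that reached 10 counts in 1 or more libraries. Neither miR-103 nor miR-107 passed at an adjusted p below 0.05, against 139 of the 367 miRNAs, a background of 37.9% (17.7% higher and 20.2% lower in biological replicate 1). miR-103 had a log2 fold change of 0.33 ± 0.15 (SE) with an adjusted p of 0.075. That of miR-107 was 0.098 ± 0.096 (SE) with an adjusted p of 0.47. At an unadjusted p below 0.05, 1 of the pair was counted, miR-103, at a threshold that at least the 37.9% of all miRNAs called above also pass. miR-103 passed in DESeq2, with a log2 fold change of 0.32 and an adjusted p of 0.0075, where 27.1% of the miRNAs tested were called. It also passed in edgeR without a filter on low counts, with 0.30 and an adjusted p of 0.034, where 25.9% were called. Scaled to library totals, the fold changes were 0.15 for miR-103 (edgeR, adjusted p = 0.19) and -0.084 for miR-107 (adjusted p = 0.51), so the direction of miR-107 depends on the scaling. The shift between TMM and library totals was 0.18 log2 units in favour of biological replicate 1, and with library totals the calls were 24 higher and 86 lower, against 65 and 74 with TMM. Only the technical pair gives this test its spread, with 1 residual degree of freedom for each miRNA. edgeR pooled that spread over all 367 miRNAs, here fully (infinite prior degrees of freedom), against 4.3 prior degrees of freedom with library totals. The p-values rest on this pooling and say nothing of variation between animals.

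The other 8 members of the miR-15 and miR-107 group were all listed and were scarcer than miR-107. They summed to 1583 CPM in biological replicate 1, against 1817 and 1815 CPM in technical replicates 1 and 2. Of the counts of the whole group, miR-103 held 94.6% in biological replicate 1, against 93.7% and 93.3% in the technical pair, and miR-107 held 3.22%, against 3.62% and 3.88%. The group as a whole held 7.19% of all counts in biological replicate 1, against 6.67% and 6.44%.

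**Figure D3:**
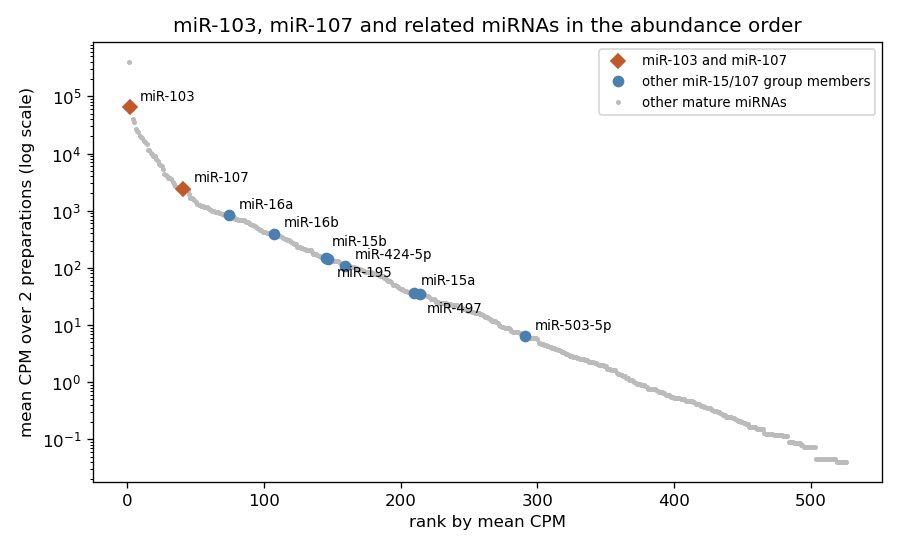
Mean CPM over 2 preparations (log scale, vertical axis) against rank (horizontal axis) for the mature miRNAs with a count, with miR-103 and miR-107 as diamonds and the other 8 miRNAs of the miR-15 and miR-107 group as blue circles. miR-103 lies at rank 2 and miR-107 at rank 41, above the related miRNAs, which run from rank 74 for miR-16a to rank 291 for miR-503-5p.

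miR-16 and miR-15, known as repressors of cell cycle genes and of BCL2, come from a pair of clusters in which their genes lie within 10 kb of each other. miR-16a had 818 CPM in biological replicate 1, against 828 and 837 CPM in the technical pair, and miR-16b had 381 CPM, against 393 and 423 CPM. miR-15b had 149 CPM in biological replicate 1, against 153 and 145 CPM, and miR-15a had 32.3 CPM, against 42.4 and 38.9 CPM. None of these 4 passed the edgeR test, with log2 fold changes of 0.16 for miR-16a, 0.081 for miR-16b, 0.18 for miR-15b and -0.14 for miR-15a. With library totals the values were -0.025 for miR-16a, -0.10 for miR-16b, -0.0013 for miR-15b and -0.33 for miR-15a, and none passed. Within the clusters, the ratio of miR-16a to miR-15a was 25.3 in biological replicate 1, against 19.6 and 21.5, and that of miR-16b to miR-15b was 2.55, against 2.56 and 2.92.

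Of the other 8 members of the group, 4 passed the test, all lower in biological replicate 1, and 0 were higher. The background of lower calls was 20.2%. At an unadjusted p below 0.05 the counts were the same, at a threshold that at least the 37.9% of all miRNAs called above also pass. In DESeq2, 2 of the 8 passed, both lower, beside 42 lower calls among the 310 miRNAs tested. The 4 lie as neighbouring genes in pairs, so they are not 4 separate loci. They are the neighbours miR-195 and miR-497, known like miR-16 as repressors of cell cycle genes, and the X-linked neighbours miR-424 and miR-503, known from endothelial cells and from the differentiation of myeloid cells in human. miR-195 had 105 CPM in biological replicate 1, against 189 and 175 CPM in the technical pair, and fell by 0.62 ± 0.12 on the log2 scale (SE; edgeR, adjusted p = 6.0e-06). miR-497 had 26.4 CPM, against 38.0 and 47.5 CPM, and fell by 0.52 ± 0.17 (log2, SE; edgeR, adjusted p = 0.0084). miR-424-5p had 68.3 CPM, against 163 and 138 CPM, and fell by 0.96 ± 0.13 (log2, SE; edgeR, adjusted p = 6.3e-11). miR-503-5p had 20 counts in biological replicate 1, against 53 and 61 counts, and fell by 1.51 ± 0.33 (log2, SE; edgeR, adjusted p = 4.3e-05). In CPM, biological replicate 1 lay below both technical libraries in each of these 4. The same held for miR-16a, miR-16b and miR-15a, which did not pass. CPM are scaled to library totals, and the folds above by TMM. With library totals the log2 fold changes were -0.80 for miR-195, -0.70 for miR-497, -1.14 for miR-424-5p and -1.69 for miR-503-5p. In DESeq2, miR-195 and miR-424-5p passed, and miR-497 (adjusted p = 0.22) and miR-503-5p (adjusted p = 0.084) did not. miR-497 also missed the threshold when edgeR took its scaling from DESeq2 (adjusted p = 0.057), where 32.2% of all miRNAs were called. The median log2 fold change of the 8 was -0.33, beside 0.013 over all 367 miRNAs. The fall of these 4 stood beside that of the vessel wall and endothelial markers given above, and the part of other cells in it was not tested. In RNA of a whole preparation, fewer cells or vesicles of a type and less RNA in each cannot be told apart.

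**Figure D4:**
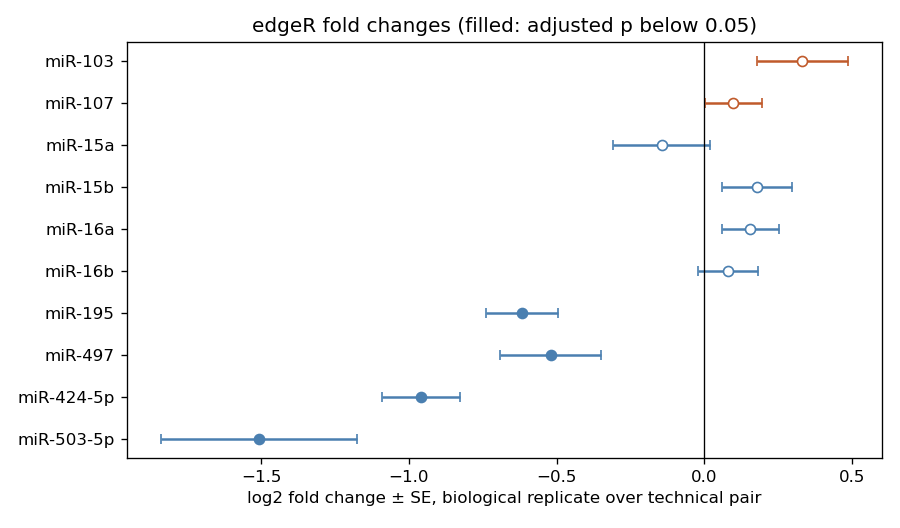
Log2 fold change of biological replicate 1 over the technical pair with its SE (edgeR, horizontal axis) for miR-103 and miR-107 (orange) and the other 8 miRNAs of the miR-15 and miR-107 group (blue). Filled circles passed at an adjusted p below 0.05; miR-103 at 0.33 and miR-107 at 0.098 did not, and the 4 that did lie between -1.51 and -0.52.

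Over the 3 libraries, the pattern most like that of miR-103 was that of miR-423-3p, which had 2628 CPM in biological replicate 1, against 2405 and 2325 CPM in technical replicates 1 and 2. Likeness was the Euclidean distance between log2(CPM + 1) values centred on each miRNA's own mean, over the same 62 abundant miRNAs. It was 0.0060 log2 units for miR-423-3p, 0.030 for miR-375, 0.053 for miR-24-3p, 0.058 for miR-409a and 0.062 for miR-191. All 5 were highest in biological replicate 1 and lowest in technical replicate 2, as miR-103 was. The miRNAs nearest to miR-107 were let-7b (0.033), miR-125a (0.043), miR-127 (0.051), miR-27b (0.064) and miR-27a-3p (0.067). miR-107 itself stood only 29th in likeness to miR-103, at a distance of 0.21, and miR-103 34th in likeness to miR-107. With 3 libraries, 2 of them technical, these distances describe the libraries and were not tested.

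The member rows have lower CPM in the authors' deposited table than those given here, because its totals count every hairpin row. In the authors' deposited table, the mir-103-2 row has 52189 CPM in biological replicate 1, against 47276 and 44737 CPM in the technical pair, and the mir-107 row has 1779 CPM, against 1827 and 1860 CPM. The log2 values of the authors' deposited table are 15.67 in biological replicate 1, against 15.53 and 15.45, for mir-103-2, and 10.80, against 10.84 and 10.86, for mir-107. For each of the 3 rows, both of the authors' deposited tables order the libraries as the values here do.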

How the data were processed

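Small RNA libraries were prepared with a NEBNext small RNA set from 500 ng of vesicle RNA, per the labels' protocols. The deposited table holds raw read counts per mature miRNA and hairpin, with CPM by the authors over all rows, and a second deposited table holds log2 CPM values. The submitters' processing notes name the build UMD3.1 and edgeR, while no source used here gives the aligner or the miRBase release. Each mature miRNA was represented by its hairpin row with the most counts. edgeR 4.0.16 in R 4.3.3 (TMM, quasi-likelihood test, Benjamini-Hochberg at 0.05) was run on counts of all miRNAs reaching 10 counts in 1 or more libraries, after tests on simulated data; SEs were derived from the fold and F. Alternatives were library totals, DESeq2 1.42.0 and its size factors, no filter, a minimum mean of 100 CPM, row sums, separate rows and the deposited log2 values. Group labels came from sample titles. The members and lists were chosen with earlier results of these data known. The miRNAs named were the members, the miR-15 and miR-107 group (miR-646 is not analysed here), the neighbours in level and the 5 nearest patterns. A comparison of seeds was part of that rule and was not run, because no sequences were used here. Whether replicates came from separate animals is not stated, and the p-values are measured only against the spread of the technical pair, pooled over miRNAs.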

Additional observations from a re-analysis of the deposited data

How the results depend on the processing

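miR-103 kept a positive fold change in all 8 fits, from 0.15 to 0.34 log2 units, and passed in 2 of them, DESeq2 (0.32) and edgeR without a filter on low counts (0.30). The difference of the authors' deposited log2 values was 0.18 for miR-103, which does not include TMM scaling. miR-107 passed in none of the 8 fits (adjusted p from 0.40 to 0.79). Its fold change was -0.084 with library totals, -0.050 among miRNAs of at least 100 CPM and -0.052 in the deposited log2 values, against 0.098 with TMM, where scaling alone moved biological replicate 1 by 0.18. DESeq2 called 84 miRNAs and the fit of miRNAs of at least 100 CPM called 70, of 310 and 167 tested, against 139.

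When hairpin rows were summed, miR-103 is counted on both hairpins, and its share became 9.82%, that of miR-107 0.181%, that of both 10.0003%, and miR-107 within the pair 1.82%. With miR-375 left out of the total, the shares were 10.7%, 0.394% and 11.1%. The row with the fewest counts moved no share by more than its SD, and neither did leaving out 1 technical library. For a fold change with 1 technical library left out, or a share without the biological library, a larger move was not possible. The mean of a pair of values always lies within their SD of either value, so these are no check. Without technical replicate 1 and 2 in turn, the fold change was 0.38 and 0.28 for miR-103, and 0.096 and 0.10 for miR-107. No test was possible with a library left out, since no residual degree of freedom remains, and leaving out the biological library leaves no comparison. No paired analysis was possible, because there is only 1 biological library and the labels tie it to neither technical library. Among the members and the related miRNAs, miR-503-5p had the fewest counts, 20 to 61.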
